A study of Homo sapiens with 6 samples.

Results

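RNA polymerase III is the nuclear enzyme that makes transfer RNAs, 5S ribosomal RNA, U6 and other short non-coding RNAs. This account follows the transcripts of 9 genes for subunits found in this polymerase and not in RNA polymerases I or II: POLR3A, POLR3B, POLR3C, POLR3D, POLR3E, POLR3F, POLR3G, POLR3GL and POLR3K. They were taken by symbol from a table of 60617 Ensembl genes, and all 9 passed the filter on low counts. The RNA came from NCI-H1299, a human cell line labelled as lung adenocarcinoma, grown in RPMI1640 medium with fetal bovine serum and antibiotics. The 3 control libraries carry the genotype label WT and are titled Puro. The 3 knockdown libraries are labelled as FuHsi knocked down and are titled Sh1. Neither title word is explained, and no source used here says whether the controls carried a vector or met a selection drug. There was 1 knockdown construct name, and no label ties replicates to separate cultures. The p-values below thus rest on the spread between these libraries alone, and that spread may be technical.

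Polymerase III consists of a catalytic core, a group of small subunits shared with the other polymerases, and parts of its own. POLR3A and POLR3B form the active centre. POLR3D and POLR3E form a dimer that works in initiation and termination. POLR3C, POLR3F and either POLR3G or POLR3GL form a trimer that contacts the initiation factor TFIIIB. POLR3G and POLR3GL are paralogs that take the same place in the enzyme, with POLR3G known for high levels in stem cells and tumour lines and POLR3GL for a broad presence in differentiated tissue. POLR3K is a small subunit needed for RNA cleavage and for termination with reinitiation. The polymerase supplies the 5S RNA that enters ribosomes in the nucleolus, the compartment named in the study's question.

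Each library held between 24231515 and 34306849 counts, with every control above every knockdown library. Correlations of log2 CPM between libraries were at least 0.990 within groups and at most 0.969 between them, so no library stood apart from its group. Levels are given as CPM, the usual count scaled to library size, with library sizes adjusted by TMM, a trimmed mean of log ratios. Of the markers checked against the label, KRT8, KRT18 and VIM were abundant, and KRT8 and VIM fell from 494 to 320 and from 1366 to 839 CPM. EPCAM, CDH1 and NKX2-1 reached at most 0.552, 0.313 and 0.372 CPM, NAPSA was called higher but reached at most 0.789 CPM, and SFTPC was at 0 in every library. The 8 leukocyte, fibroblast and endothelial markers lay between 0 and 2.06 CPM. PTPRC and DCN among them were called higher, at mean levels of 0.273 and 0.748 CPM and of 0.188 and 0.595 CPM in control and knockdown, and the part of such RNA in the results was not tested. The level of FuHsi itself is not analysed here, since no row carries that name.

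The knockdown libraries held less RNA for 6 of the 9 subunits and more for 1. POLR3K fell 3.59-fold and POLR3G fell 2.36-fold. POLR3A, POLR3B, POLR3D and POLR3E fell by 0.21 to 0.25 on the log2 scale, and POLR3C rose by 0.28. POLR3F and POLR3GL did not pass the test. A gene is called where its adjusted p is under 0.05 (edgeR, quasi-likelihood, Benjamini-Hochberg over 17223 genes). Of all tested genes, 61.6% were called, 30.9% lower and 30.7% higher, so a call in itself was common in these libraries. For tested protein-coding genes the shares were 37.3% lower and 32.2% higher. A call of a fall was more common among genes of higher level, and the shares by level are given below. Falls of at least 2-fold with a call, which POLR3K and POLR3G showed, made up 3.12% of tested genes. The median log2 fold change was -0.22 over the 9 subunits and 0.03 over all tested genes. Summed over the 9 genes, the level went from 376 ± 8.14 CPM in control to 318 ± 10.8 CPM in knockdown (mean ± SD, n = 3). In these bulk samples, fewer cells with a transcript and less of it per cell cannot be told apart.

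The 4 small falls depended on whether a scaling factor was used. With RLE or upper-quartile factors in place of TMM all 4 stayed called, at edgeR adjusted p-values of up to 0.00307 and 0.0302. With library size alone in place of TMM, the median of all genes moved up by 0.15 log2 units. POLR3A, POLR3B, POLR3D and POLR3E then stood at -0.09, -0.10, -0.06 and -0.07 and were not called, with edgeR adjusted p-values of 0.0629, 0.284, 0.370 and 0.353. POLR3K and POLR3G remained called under that scaling, at -1.69 and -1.08, as did POLR3C, at 0.43. POLR3F was called higher, at 0.27. Fold changes also moved with abundance: of 5 equal classes of tested genes by level, the highest, which holds POLR3A, had a median of -0.20, and the next, which holds POLR3C, POLR3D, POLR3E and POLR3G, had a median of -0.08. The middle class, which holds POLR3B, POLR3F and POLR3K, had a median of 0.08. The part of abundance in the small falls was not tested.

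**Figure D1:**
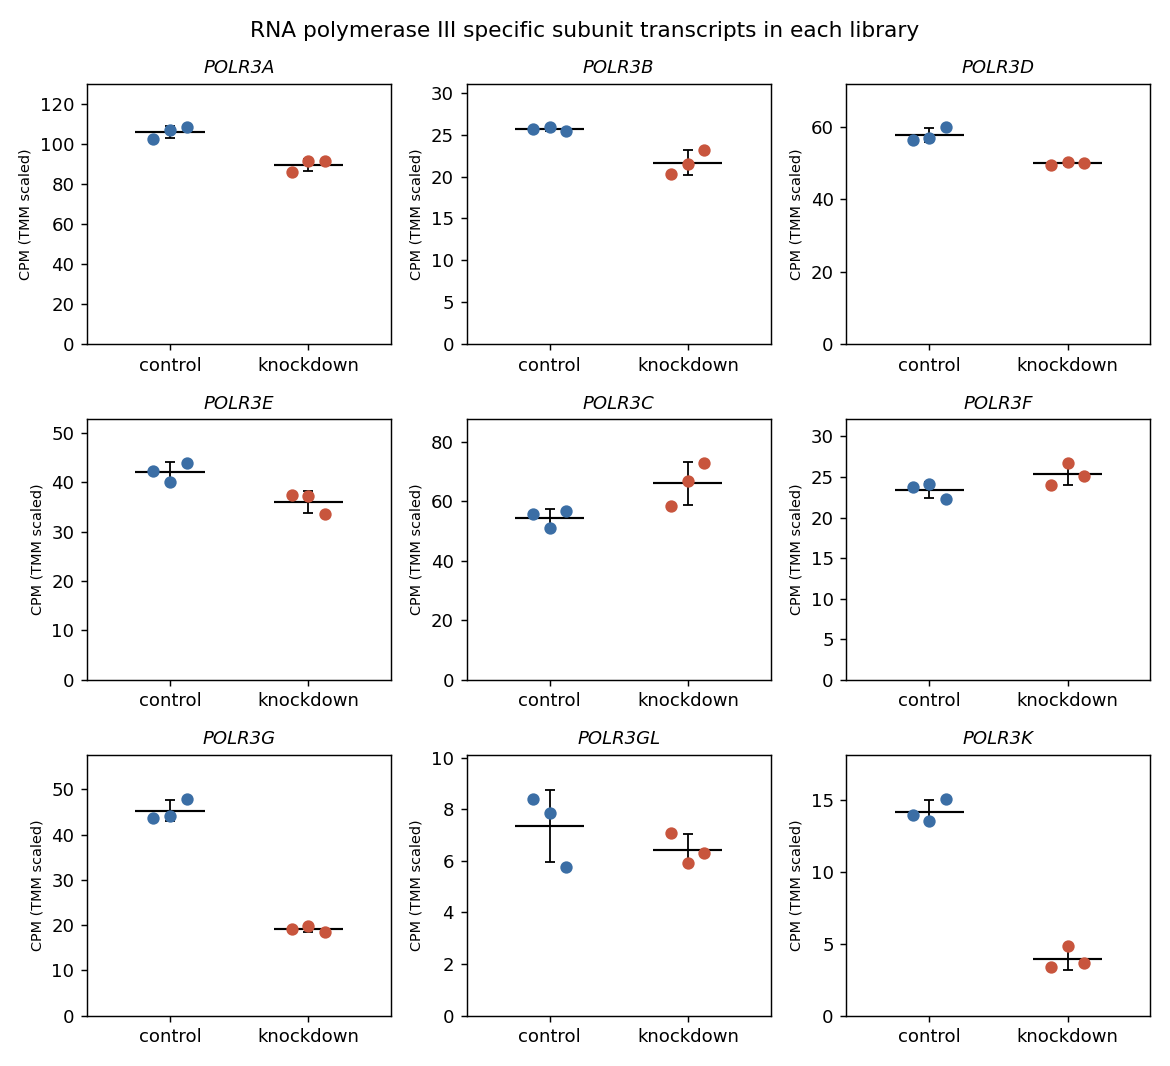
Transcript level of each RNA polymerase III specific subunit in every library, in TMM-scaled CPM, with all axes starting at 0. Points are libraries, 3 per group; horizontal lines are group means and error bars are SD. The groups stand apart for 7 genes, most widely for POLR3K and POLR3G, and overlap for POLR3F and POLR3GL.

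POLR3K, the cleavage and termination subunit, had the largest fold change of the 9. The gene (ENSG00000161980) lies on GRCh38 chromosome 16, 46407 to 53628, minus strand. Control libraries 1, 2 and 3 held 14.0, 13.5 and 15.1 CPM, and knockdown libraries 1, 2 and 3 held 3.41, 4.85 and 3.64 CPM. The highest knockdown library was far below the lowest control library. The log2 fold change was -1.84 ± 0.13 (SE), its 95% interval -2.11 to -1.58 and its edgeR adjusted p 4.84e-19. Of all tested genes, 0.296% had a lower log2 fold change. These values rest on 436 to 457 counts per control library and 93 to 123 per knockdown library. Its pseudogenes POLR3KP1 and POLR3KP2 had 0 counts in all libraries.

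POLR3G (ENSG00000113356, chromosome 5, 90471748 to 90514553, plus strand), one of the interchangeable trimer subunits, was the next lowest. It stood at 43.7, 44.2 and 47.9 CPM in the control libraries and at 19.2, 19.8 and 18.5 CPM in the knockdown libraries. The spread within each group was small beside the gap between them. Its log2 fold change was -1.24 ± 0.07 (SE), its 95% interval -1.38 to -1.10 and its edgeR adjusted p 1.80e-23.

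POLR3GL (ENSG00000121851, chromosome 1, 145964702 to 145978848, plus strand), the paralog of POLR3G, was scarce and variable. Its control libraries held 8.41, 7.86 and 5.78 CPM and its knockdown libraries held 7.10, 5.91 and 6.30 CPM. The groups overlapped, with the lowest value of all in a control library. Its log2 fold change of -0.19 ± 0.14 (SE) had a 95% interval of -0.47 to 0.09 and an edgeR adjusted p of 0.239. Without control replicate 3 it was called, at -0.34 with an adjusted p of 0.0481, over a range of 0.0481 to 0.658 when each library was left out in turn. POLR3GL shares 21.2% of its exonic bases with another annotated gene, AC243547.3, which was not tested, so its counts are less certain than those of the other subunits.

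The ratio of POLR3G to POLR3GL was lower in every knockdown library than in any control library. Each control library held 5.196, 5.62 and 8.29 POLR3G counts per POLR3GL count, and each knockdown library held 2.71, 3.35 and 2.93. The highest ratio was that of control library 3, which held the fewest POLR3GL counts of the control libraries, 167. A ratio within a library does not depend on how libraries are scaled. The log2 ratio went from 2.63 ± 0.36 to 1.57 ± 0.15 (mean ± SD, n = 3), a difference of -1.06 with an exact two-sided permutation p of 0.1, the smallest that 3 against 3 libraries can give. Per kilobase of the longest coding transcript, POLR3G was 2.26 ± 0.594 times POLR3GL in control and 1.06 ± 0.116 times in knockdown. POLR3G thus made up 64.8%, 66.6% and 74.6% of the pair per length in the control libraries, and 49.0%, 54.3% and 51.0% in the knockdown libraries. These shares depend on the length used and on the less certain POLR3GL counts. Over the union of all annotated exons, the control levels of POLR3G and POLR3GL were 11.3 and 4.09 CPM per kilobase.

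**Figure D2:**
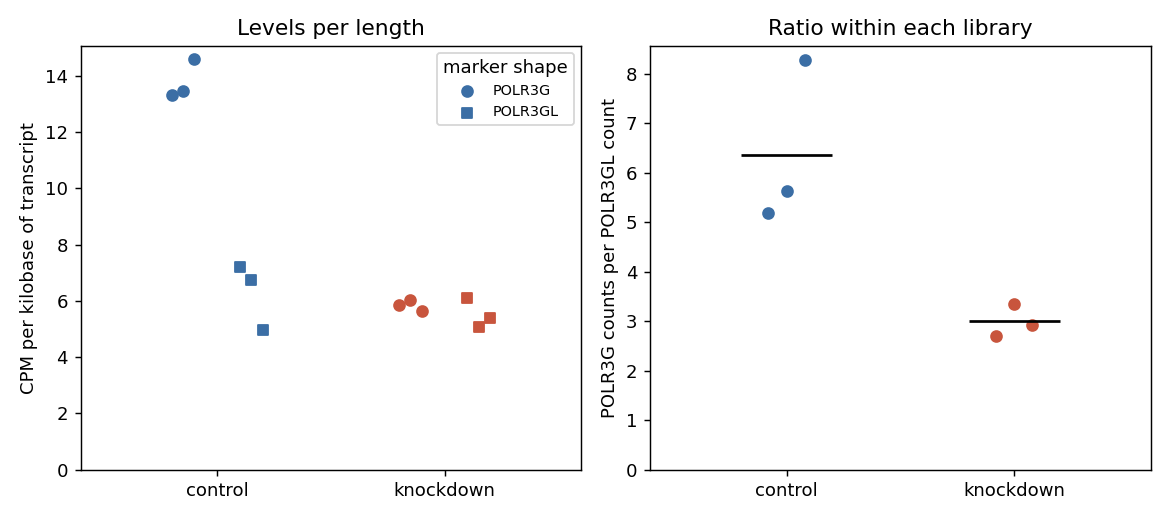
Left, levels of POLR3G (circles) and POLR3GL (squares) in each library, in CPM per kilobase of the longest coding transcript. Right, POLR3G counts per POLR3GL count within each library, with the group mean as a line; the control libraries lie between 5.196 and 8.29 and the knockdown libraries between 2.71 and 3.35.

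POLR3C (ENSG00000186141, chromosome 1, 145824088 to 145842505, plus strand), which carries winged-helix domains and anchors the trimer, was the single subunit called higher. The control libraries held 55.5, 51.0 and 56.8 CPM and the knockdown libraries 58.5, 66.7 and 72.9 CPM. The groups did not overlap, though the lowest knockdown library was close to the highest control library. The log2 fold change was 0.28 ± 0.06 (SE), its 95% interval 0.15 to 0.40 and its edgeR adjusted p 0.000129. POLR3F (chromosome 20, 18467127 to 18484643, plus strand), the remaining trimer subunit, held 23.8, 24.1 and 22.3 CPM in control and 24.04, 26.7 and 25.2 CPM in knockdown. Its groups overlapped, and its log2 fold change of 0.11 had a 95% interval of -0.04 to 0.27 with an adjusted p of 0.200 by the same edgeR test. The trimer genes thus included a called rise, a called fall and 2 genes with no call.

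Both catalytic core genes fell. POLR3A (chromosome 10, 77969251 to 78029545, minus strand), the largest subunit, stood at 102, 107 and 108 CPM in control and at 86.0, 91.4 and 91.1 CPM in knockdown. POLR3B (chromosome 12, 106357658 to 106510198, plus strand), its partner at the active centre, stood at 25.7, 25.9 and 25.4 CPM in control and at 20.3, 21.4 and 23.2 CPM in knockdown. Neither pair of groups overlapped. The log2 fold changes were -0.24 ± 0.04 (SE) and -0.25 ± 0.08 (SE), with edgeR adjusted p-values of 2.39e-06 and 0.0043. POLR3A and POLR3B variants cause a recessive leukodystrophy in people, which is background to their names and was not examined here.

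Both genes of the POLR3D and POLR3E dimer fell. POLR3D (chromosome 8, 22245104 to 22254600, plus strand) held 56.4, 57.0 and 59.9 CPM in control and 49.6, 50.4 and 49.99 CPM in knockdown. POLR3E (chromosome 16, 22297375 to 22335103, plus strand) held 42.3, 40.0 and 43.9 CPM in control and 37.5, 37.1 and 33.5 CPM in knockdown. All knockdown libraries were below all control libraries for both genes. Log2 fold changes were -0.21 ± 0.05 (SE) and -0.22 ± 0.06 (SE), with edgeR adjusted p-values of 0.00062 and 0.00183. In all, 7 of the 9 subunits had groups that did not overlap, 6 with all knockdown libraries below and 1 with all above. Over all tested genes the share was 65.3%, with 32.3% below and 33% above.

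**Figure D3:**
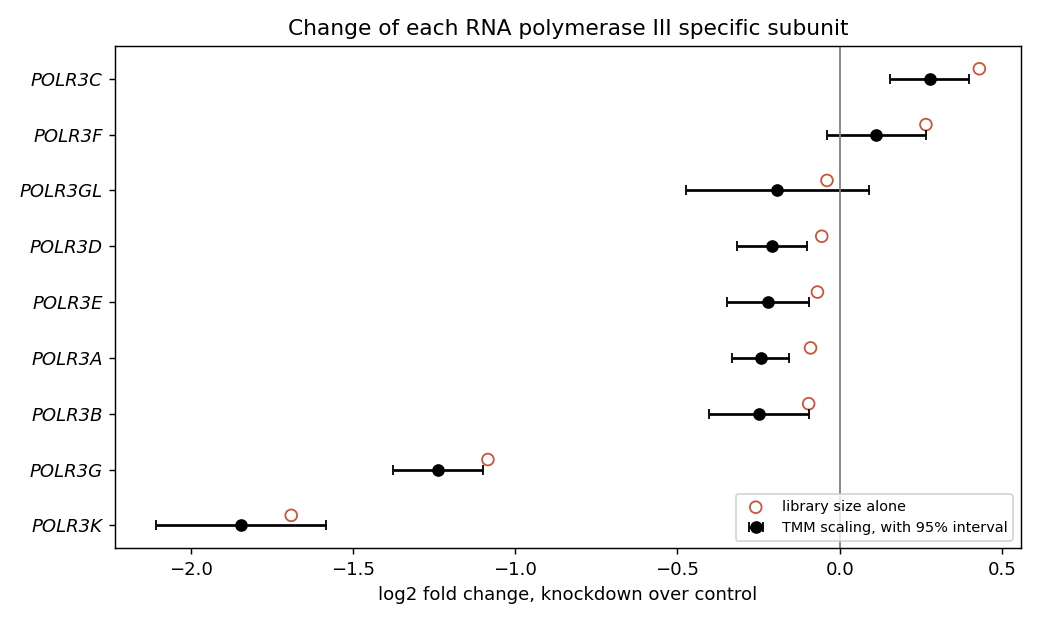
Log2 fold change of knockdown over control for each subunit with TMM scaling (filled, with its 95% interval) and with library size alone (open). POLR3K and POLR3G lie far to the left under both scalings, the 4 subunits between -0.21 and -0.25 move to between -0.06 and -0.10, and POLR3C lies to the right of 0 under both.

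In order of their log2 fold change the subunits ran POLR3K, POLR3G, POLR3B, POLR3A, POLR3E, POLR3D, POLR3GL, POLR3F and POLR3C. The order was read from the same values, so the gaps are given as a description. POLR3K lay 0.60 log2 units below POLR3G, and POLR3G lay 0.99 below POLR3B. For both gaps, the within-library difference of the genes separated all knockdown from all control libraries. From POLR3B to POLR3GL the gaps between neighbours were 0.01 to 0.03, and those from POLR3GL to POLR3F and from POLR3F to POLR3C were 0.29 and 0.16. For these the within-library differences of the groups overlapped.

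Levels of different genes can be compared per length. Per kilobase of the longest coding transcript, POLR3C was highest in control at 29.4 ± 1.64 CPM per kilobase, followed by POLR3A at 15.9 ± 0.463 and POLR3G at 13.8 ± 0.699 (mean ± SD, n = 3). POLR3E, POLR3D, POLR3K and POLR3F came next, between 11.4 and 9.68, and each of these overlapped its neighbour. POLR3GL at 6.31 ± 1.19 and POLR3B at 6.01 ± 0.056 were lowest and overlapped. In knockdown the level of POLR3G per kilobase was 5.84 ± 0.207, which moved it from rank 3 to rank 6. Its range there overlapped that of the next gene, POLR3GL at 5.53 ± 0.519, which overlapped that of POLR3B. POLR3K was last of the 9 in knockdown, at 2.85 ± 0.554 CPM per kilobase. The order depends on the transcript length used. With the union of all annotated exons, POLR3E moved from rank 4 to rank 8 in control, while POLR3C, POLR3A and POLR3G kept ranks 1 to 3.

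The sequence before the starts of these genes was searched for short words. RefSeq windows on GRCh38.p14 were matched for 7 of the 9 subunits, with 9 windows in all, and the 250 bases before each RefSeq start were searched on both strands. POLR3D and POLR3G had no entry. The words were CACGTG (E-box, a site of MYC and related factors), CCGGAAG (ETS type), TATAAA, an interferon-response type word and CCAAT, the last added after the sequences were seen. Shown are the catalytic subunit POLR3A, from the window's start to its last match (chr10:78029545-78029765, minus strand), and the matches with 10 bases on each side for the subunit with the largest fall (POLR3K, chr16:53750-53774, chr16:53692-53716 and chr16:53657-53681, minus strand) and the subunit that rose (POLR3C, chr1:145823994-145824019 and chr1:145824165-145824191, plus strand). Each runs 5′ to 3′ on the gene's strand, with matches in capitals.
POLR3A: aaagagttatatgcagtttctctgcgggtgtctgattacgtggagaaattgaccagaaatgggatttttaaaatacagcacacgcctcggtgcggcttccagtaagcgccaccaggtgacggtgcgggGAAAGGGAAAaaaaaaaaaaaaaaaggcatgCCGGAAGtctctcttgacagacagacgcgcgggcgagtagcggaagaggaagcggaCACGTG
POLR3K, first match: gctgcagtgaCCAATgacaagtgcg
POLR3K, middle match: cgccctgtctATTGGttggttggtg
POLR3K, last match: gctgccaggaCCAATgtgagctcga
POLR3C, E-box: ccgcgtcggtCACGTGagttggccag
POLR3C, ETS word: aagagcgtccCCGGAAGccgccgaaac

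POLR3A held an E-box 35 bases, an ETS word 91 bases and an interferon-type word 122 bases before its RefSeq start. POLR3C held an E-box at 196 bases and an ETS word at 25 bases in its first window. POLR3K held CCAAT at 156, 98 and 63 bases, the middle match on the other strand, and none of the other words. CCAAT was in 4 of the 9 windows, those of POLR3K, POLR3B and POLR3GL and the second of POLR3C, so genes with a fall, a rise and no call all held it. Of all 35116 windows of this length, 32.0% held CCAAT and 2.93% held it 3 or more times. The E-box, the ETS word and the interferon-type word were found in 6.34%, 8.52% and 3.02% of windows, and TATAAA, which no subunit window held, in 10.7%. Subunits with an E-box likewise included a called fall and a called rise. A match describes letters in a window and does not show a bound factor.

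The RefSeq starts differ from those of GENCODE v29, so the windows are not wholly upstream sequence. Of their 250 bases, GENCODE exons of the gene itself cover 30 for POLR3A, 20 for POLR3K and 112 for the first window of POLR3C, and all of them for POLR3F. The ETS word of POLR3C lies in an exon of POLR3C, and its E-box in an exon of RNF115, a gene on the opposite strand. An exon of SNRNP25 covers the whole POLR3K window and its 3 CCAAT matches.

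Words of 7 bases that an earlier scan of these same libraries had picked out, and which are therefore no independent choice, were looked up in the annotated coding transcripts of 13307 tested genes. The word CTATTGA was in none of the 9 subunits and in 16.9% of these genes. For CCTATTG, likewise absent from the subunits, the share was 13.7%. POLR3A, POLR3G and POLR3GL held ACCTATT, found in 16.5% of these genes. POLR3K, with the largest fall of the 9, held none of these words.

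Genes that share exonic bases with a subunit were examined since no source used here says whether counting took strand into account. POLR3K shares 8.10% of its exonic bases with SNRNP25, a component of the minor spliceosome on the opposite strand whose annotated start is 618 bases away. SNRNP25 fell from 29.2 to 12.6 CPM, or -1.21 ± 0.08 (SE) on the log2 scale. POLR3G shares 6.47% with MBLAC2, also on the opposite strand, which fell from 12.3 to 5.60 CPM, at -1.13 ± 0.13 (SE). POLR3F shares 5.29% with DZANK1 on the opposite strand, with starts 154 bases apart, and DZANK1 rose by 0.48 ± 0.17 (SE). The DZANK1 call was lost with DESeq2 (0.46, adjusted p 0.0693) and without control replicate 3 (0.43) or knockdown replicate 3 (0.37). The edgeR adjusted p-values of these 3 neighbours were 1.26e-19, 9.34e-12 and 0.0137. If counting ignored strand, reads from the shared bases cannot be assigned to either gene. The part of such reads in the changes was not tested.

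Subunits shared with other polymerases were lower. All 7 subunits that polymerase III shares with other polymerases fell. Among these, POLR2F and POLR2K, common to all 3 nuclear polymerases, fell by 0.72 and 0.70, and POLR1C and POLR1D, shared with polymerase I, fell by 0.30 and 0.34. The 7 remained called with library size alone. Each lies in the highest or the next class by level, where 60.3% and 45.8% of tested genes were called lower. CRCP, a further subunit of the enzyme, was at 93.9 ± 4.66 and 97.5 ± 4.01 CPM with no call, at 0.05, and was called higher with library size alone, at 0.21, and with upper-quartile factors, at 0.11.

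Most initiation factor genes fell. Of 11 genes for TFIIIA, TFIIIB and TFIIIC, 9 fell and 1 rose, with a median of -0.37. All but BRF2 lie in the highest or the next class by level, where 60.3% and 45.8% of tested genes were called lower. All 6 TFIIIC genes fell, from -0.19 for GTF3C3 to -0.82 for GTF3C6, and GTF3C1, the large subunit that contacts the internal B box of transfer RNA genes, was at -0.63. GTF3A (TFIIIA), which brings the machinery to 5S genes, fell by 0.42. In TFIIIB, BRF1, used at transfer RNA and 5S genes, fell by 0.58, and TBP fell by 0.23. BRF2, which replaces BRF1 at U6-type genes, was at 12.3 ± 1.38 and 12.4 ± 0.902 CPM with no call, but shares 59.0% of its exonic bases with ADGRA2. BDP1, a TFIIIB subunit common to both, rose from 32.4 ± 1.88 to 60.5 ± 3.11 CPM. Its log2 fold change was 0.90, at an edgeR adjusted p of 2.81e-20. With library size alone TBP and GTF3C3 lost their calls, at -0.07 and -0.04.

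SNAPc is the complex that recognises U6-type promoters, and it was listed here with 2 activators. Of 7 genes, 4 rose and 1 fell, with a median of 0.12. The shares called among all tested genes were 30.7% higher and 30.9% lower. SNAPC1 rose from 39.8 ± 0.898 to 78.8 ± 4.47 CPM, or 0.99 on the log2 scale, and 21.3% of its exonic bases also belong to AL137129.1. ZNF143 and POU2F1, activators that bind upstream of these promoters, rose by 0.39 and 0.24. SNAPC4 was called at 0.12 and lost its call in 6 of 14 alternatives, 3 of them the leaving out of control replicate 1, control replicate 2 or knockdown replicate 2. SNAPC3 fell by 0.37.

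MAF1, the repressor that binds polymerase III when growth signals fail, fell from 169 ± 3.18 to 146 ± 1.15 CPM, at -0.21, and RB1, which also represses it, fell by 0.26. Both lost their calls with library size alone, at -0.06 and -0.11. SSB (La), which binds the uridine tail of new polymerase III transcripts, fell by 0.39. LARP7, of the 7SK particle, was at -0.05 with no call. MAF1, RB1 and SSB lie in the highest class by level, which had a median of -0.20 and 60.3% of its genes called lower.

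The maturation of polymerase III products was covered by 17 genes for RNase P and transfer RNA processing, of which 16 were tested. Here 9 fell and 2 rose, with a median of -0.19, against 6 lower and 5 higher with library size alone. Over all tested genes, 30.9% were called lower and 30.7% higher with TMM. All 16 tested genes of this list lie in the highest, the next or the middle class by level. In the highest and the next class, 60.3% and 45.8% of tested genes were called lower, and in the middle class a share slightly under 30.9%. The part of abundance in the 9 falls was not tested. POP7 fell by 1.28 and RPP40 by 1.01, both protein subunits of RNase P. TSEN54 and TSEN34 of the transfer RNA splicing endonuclease fell by 1.04 and 0.96, and TSEN15 of the same complex rose by 0.25. ELAC2, which trims the 3′ ends of transfer RNAs, fell by 0.69. RPP38 rose by 0.59, and 26.9% of its exonic bases also belong to NMT2 or C10orf111. XPOT, the export receptor of transfer RNAs, was at 433 ± 5.38 and 443 ± 10.6 CPM with no call.

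**Figure D4:**
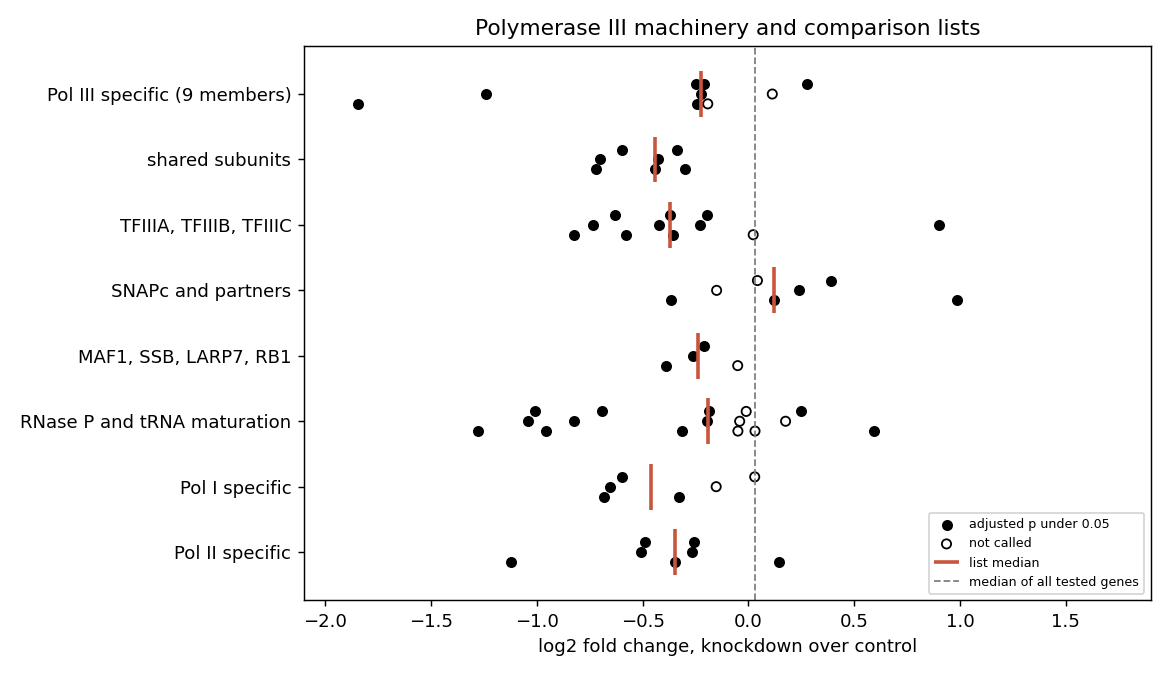
Log2 fold change of each tested gene by list, with filled points for an adjusted p under 0.05 and open points for no call; red bars are list medians and the dashed line is the median of all tested genes at 0.03. Shared subunits and TFIII factors lie mostly left of the line with BDP1 far to the right, and SNAPc genes lie on both sides.

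The polymerases were set side by side. Of 6 polymerase I specific subunits, 4 fell and 0 rose in edgeR's test (0 at an unadjusted p under 0.05, and 0 with DESeq2 or limma voom), with a median of -0.46. Of 7 polymerase II specific subunits, 6 fell and 1 rose, with a median of -0.35. With library size alone 4 of these were lower, POLR2G and POLR2J losing their calls at -0.11 and -0.10, while the count for polymerase I stayed at 4. The median over the 9 polymerase III subunits was the nearest to 0 of these, at -0.22, yet POLR3K and POLR3G had larger falls than any subunit of the other lists. POLR2I, POLR1G and POLR1H share 79.6%, 45.1% and 24.5% of their exonic bases with other genes. POLR2B, at -1.12, and POLR1B, at -0.68, were the lowest of those lists. The difference between the lists was not tested, and 30.9% of all tested genes were called lower. Of the polymerase I and II subunits, all but POLR1F, POLR1H and POLR2I lie in the highest or the next class by level. There, 60.3% and 45.8% of tested genes were called lower.

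The products of polymerase III were hardly seen by these libraries. Of 20 rows for 7SK, 7SL, U6, Y, vault, RMRP, RPPH1 and related RNAs, 11 had 0 counts in all libraries, 7 more had at most 10 counts in any library, and 2 were tested. BCYRN1, a short primate RNA derived from an Alu element, went from 126, 151 and 132 counts in control to 108, 55 and 50 in knockdown, a log2 fold change of -0.73 at an edgeR adjusted p of 0.00121. RN7SL1 was at -0.80 with overlapping groups, and all of its exonic bases are shared with another annotated gene. Its call was lost when control replicate 2 (-0.64), knockdown replicate 1 (-0.63) or knockdown replicate 2 (-0.62) was left out, and without knockdown replicate 3 the value was -1.27. The output of the enzyme was therefore not measured.

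Genes with the pattern most like that of the paralogs were found by the root mean square difference of log2 CPM, each gene centred on its own mean, over the 6 libraries and among 12670 genes. For POLR3G these were TFDP1, a dimer partner of E2F factors, at a difference of 0.0229, BOP1, a large ribosomal subunit assembly factor, at 0.0236, and POP7 of RNase P, at 0.0273. Their log2 fold changes were -1.22, -1.23 and -1.28. For POLR3GL, the nearest were LIN28B-AS1 at 0.0526, AC010422.8 at 0.0636 and MEI4 at 0.064, none of them called. The pattern of POLR3G is chiefly its difference between the groups, so the likeness is a description of size and spread.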

How the data were processed

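The authors deposited 1 table of raw read counts per Ensembl gene for 6 RNA-seq libraries, with no normalization. Per the labels' protocols, RNAiso Plus was used for total RNA and a TruSeq kit for the libraries. The tools named, per the submitters' processing notes, are featureCounts 2.0.1, STAR 2.7.0d, DESeq2 1.30.1 and Trim Galore 0.6.6, and the build is hg38. No source used here gives their settings, the annotation or the use of strand. Symbols were found for 60261 of 60617 identifiers, and 58542 were in GENCODE v29 (GRCh38), which gave coordinates, transcript lengths and shared exonic bases.

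Counts were filtered with filterByExpr at a minimum count of 10, scaled by TMM and tested with edgeR 4.0.16 (quasi-likelihood, robust, group as the only term) in R 4.3.3, with Benjamini-Hochberg adjustment over 17223 genes and a threshold of 0.05. Fold changes are knockdown over control. Standard errors come from the test statistic, and log2 CPM used a prior count of 2. The test was also run on simulated data. There it called 84 of 98 genes with a true log2 change of 1 in the right direction. At a true change of 0.5 it called 52 of 99, and it called 7 of 16671 unchanged genes. Far fewer genes changed in the simulation than were called in these libraries, so it does not bear on the scaling. Alternatives were RLE, upper-quartile and no scaling factors, no filter, DESeq2 1.42.0, voom of limma 3.58.1, the replicate number as a block, thinning to the smallest library and leaving out each library. The 9 members and the gene lists were chosen with earlier results of these data known. Named genes are the 9 members, genes of lists of 11 or fewer, the called gene with the largest rise and with the largest fall of longer lists, and the 3 genes most like each paralog. Neighbours sharing exonic bases, and the RNase P and transfer RNA genes other than POP7 and RPP38, were chosen after their values were seen. CCAAT was likewise added afterwards. Promoter words were sought in the 250 bases before the RefSeq start, not in the whole window. GENCODE v29 exons cover part of these bases. Results for 1 gene of the lists are not reported here.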

Additional observations from a re-analysis of the deposited data

How the results depend on the processing

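Over the 9 subunits and 14 alternatives, 119 of 126 log2 fold changes kept their direction and their side of the threshold, 0 changed sign, 4 lost a call and 3 gained one. POLR3K ranged from -2.02 to -1.74 and POLR3G from -1.27 to -1.20 when each library was left out. With library size alone, the count of subunits lower was 2 in place of 6, that of subunits higher was 2 in place of 1, and the median was -0.07 in place of -0.22. The same setting called 1 further subunit, CRCP, higher, and gave 5 RNase P and transfer RNA genes higher and 6 lower in place of 2 and 9, 4 polymerase II specific subunits lower in place of 6, 7 TFIIIA, TFIIIB and TFIIIC genes lower in place of 9, and 1 of MAF1, SSB, LARP7 and RB1 lower; SNAPC2 was at 0.00344, LARP7 at 0.103 and POLR1F at 0.000779, each with a changed sign. Upper-quartile factors gave 2 subunits higher (POLR3F at 0.17), 1 further subunit higher (CRCP), 4 RNase P and transfer RNA genes higher, and LARP7 at 0.00961. SNAPc genes lower numbered 2 with RLE factors and 2 after thinning. The uncalled BRF2 changed sign with DESeq2 (-0.00471), after thinning (-0.00802), and without control replicate 1, control replicate 2 or knockdown replicate 1. Over left-out libraries BRF2 ranged from -0.0433 to 0.110, and the uncalled SNAPC5 and POLR1H from -0.0220 to 0.0681 and from -0.0944 to 0.0913. POLR1H turned without control replicate 2 or knockdown replicate 3, and SNAPC5 without knockdown replicate 1. Polymerase III transcripts lower ranged from 1 to 2 when a library was left out.

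A fit that took the replicate number as a block called 5214 genes higher and 5263 lower, and 6 subunits were lower and 1 higher, as without it. Deviations of same-numbered libraries correlated at -0.000751, -0.00642 and -0.0235, so nothing here shows that the numbers pair the samples. The difference in the log2 ratio of POLR3G to POLR3GL ranged from -1.19 to -0.86 over left-out libraries, and was -1.02 after thinning. After thinning to the smallest library POLR3K was at -1.80 and POLR3GL at -0.21.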
